A study of Mus musculus with 8 samples.

Results

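The genes described here are 9 listed as genes of the macrophage lineage, Spi1, Cebpb, Csf1r, Trem2, Tyrobp, Adgre1, Cd52, Cd68 and Lyz2, out of 55335 genes in the deposited table. They were chosen by name as genes of that lineage, with no threshold on a measured value, and each was found by the Ensembl identifier that carries its mouse symbol. The RNA came from RAW264.7, a mouse line that resembles macrophages and arose from a tumour induced by a leukaemia virus, after 3 days with a bone scaffold material. In the first group the cells were kept with the Trio-Active bone scaffold (TABS), and in the second with hydroxyapatite doped with magnesium ions (HA/Mg), with 4 libraries each, numbered 5 to 8 in both groups. All 8 libraries come from the same line, no genetic change or drug is named, and neither the make-up of TABS nor a culture without scaffold is described in the labels used here. Groups follow the sample titles; the library names use the letter H for TABS and L for HA/Mg. The labels do not state whether the 4 libraries of 1 material are separate cultures, and the p-values below therefore measure the spread between libraries only, which may be technical.

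Macrophages form when the transcription factor PU.1, encoded by Spi1, acts with members of the C/EBP family to switch on myeloid genes in blood progenitors. Among those genes is Csf1r, whose product receives the growth factor CSF1 and keeps macrophages alive. Mature cells carry receptors that signal through the adaptor TYROBP, and fill their lysosomes with proteins such as CD68 and lysozyme. RAW264.7 cells keep much of this programme in culture and can be turned into bone-resorbing osteoclasts.

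The regions before the lysozyme genes are shown first, because Lyz2 was the most abundant of the 9 and lies beside Lyz1, a near copy. Reads of the pair could be confused, but that depends on the transcripts, compared further below, and not on the regions printed here. Both sequences come from RefSeq on GRCm38.p6 and are read 5′ to 3′ on the minus strand, chr10:117282323-117282392 for Lyz2 and chr10:117292919-117292988 for Lyz1. They run from 120 to 51 bases before the RefSeq start, and capitals mark the positions at which the pair differ. All distances here are from RefSeq starts. GENCODE starts Lyz2 further upstream, at 117282321, so most of the 50 bases nearest its RefSeq start lie within the GENCODE transcript.
Lyz2: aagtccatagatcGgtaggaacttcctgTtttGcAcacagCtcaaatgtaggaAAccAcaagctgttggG
Lyz1: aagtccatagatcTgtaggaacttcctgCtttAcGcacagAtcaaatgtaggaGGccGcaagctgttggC
Over the 120 bases next to the start 9 positions differed (92.5% identical), and the nearest 50 bases, not printed, were the same in both genes. The RefSeq table held a promoter for 4 of the 9 genes, Lyz2, Cd68, Trem2 and Cebpb. In the 250 bases before the start, both lysozyme genes held AGGAAG on the opposite strand (cttcct above) at 99 bases before the start, and Lyz2 held a second copy at 137 bases. AGGAAG and GAGGAA are short forms of the purine-rich sequence that PU.1 is known to bind, and each was searched on both strands. Of 32851 RefSeq promoters, 29.5% held AGGAAG, 23.3% held GAGGAA and 39.2% held at least one of them, so a match is common.

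The promoters of Cd68, which was higher with TABS, and of Trem2, whose log2 difference was below 0, are given for comparison. They cover the 250 bases before the RefSeq start, chr11:69666171-69666420 on the minus strand for Cd68 and chr17:48346151-48346400 on the plus strand for Trem2, with matches in capitals. GENCODE starts Cd68 slightly further downstream, at 69666153.
Cd68: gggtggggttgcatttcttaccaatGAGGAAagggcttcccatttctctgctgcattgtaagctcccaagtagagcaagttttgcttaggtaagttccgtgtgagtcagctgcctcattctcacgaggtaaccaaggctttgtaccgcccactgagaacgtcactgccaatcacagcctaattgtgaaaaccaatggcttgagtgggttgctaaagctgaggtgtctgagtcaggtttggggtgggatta
Trem2: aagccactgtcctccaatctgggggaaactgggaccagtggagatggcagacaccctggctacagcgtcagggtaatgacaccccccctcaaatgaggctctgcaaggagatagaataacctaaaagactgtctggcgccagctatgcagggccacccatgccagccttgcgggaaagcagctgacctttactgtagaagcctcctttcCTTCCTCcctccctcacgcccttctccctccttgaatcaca
Cd68 held GAGGAA at 225 bases before the start. In Trem2 a GAGGAA at 40 bases and an AGGAAG at 41 bases, both on the opposite strand, overlap in the run shown in capitals. Cebpb held neither within this window.

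All 9 genes were expressed in every library and passed the filter of 1 FPKM or more in at least 4 libraries, where FPKM is the fragment number divided by transcript length and by the total that mapped. Together they summed to 2641, 2761, 3125 and 2876 FPKM in TABS replicates 5 to 8 and to 2385, 2674, 2440 and 2209 FPKM in HA/Mg replicates 5 to 8. That sum was 0.787% to 0.892% of all FPKM in TABS libraries and 0.674% to 0.786% in HA/Mg libraries, and Lyz2 alone made up 47.6% to 51.0% of it with TABS and 49.0% to 53.2% with HA/Mg. In bulk RNA a smaller share of cells expressing a gene and less RNA per cell cannot be told apart.

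Between 9908 and 10280 genes reached 1 FPKM in a library. The table gives no counts, and low values that were whole multiples of 1 fragment within 0.05 were only 24.3% to 29.4% of those examined, so the implied 19802000 to 23585000 fragments per library are rough estimates. The first principal component (40.2% of the variance) ran from -16.5 to -5.72 over the TABS libraries and from 12.7 to 16.4 over HA/Mg replicates 5, 7 and 8. HA/Mg replicate 6, at -2.62, was nearer to the TABS side. The label was checked against markers: all 13 macrophage markers reached 1 FPKM. The 13 include the 9 genes themselves, so only Itgam, Cd14, Fcgr1 and Mpeg1 add to the check. Some macrophage receptors outside the 13, such as Mrc1 and Mertk, were at or near 0, as given below. Of 6 B cell markers Cd79b alone reached 1 FPKM and of 6 T cell markers Lck alone, while Ms4a1, Cd3e, Cd4 and Cd8a were listed at 0 in every library. None of the dendritic cell (6), neutrophil (8), osteoblast (7), fibroblast (7), endothelial (4) or epithelial (4) markers reached 1 FPKM. Of 9 osteoclast markers Dcstamp, Nfatc1 and Mmp9 did so and Calcr was listed at 0, and the list summed to 136 to 167 FPKM with TABS and 93.1 to 128 FPKM with HA/Mg, mostly from Mmp9 (144 FPKM with TABS and 98.1 FPKM with HA/Mg). The part of these other markers in the results below was not tested.

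Of the 9 genes 4 rose with TABS, Cd52, Cd68, Csf1r and Cebpb, 0 fell and 5 did not pass, in limma's moderated test on log2(FPKM + 1) over 10161 genes at a Benjamini-Hochberg adjusted p under 0.05. Cd52, a small lipid-anchored glycoprotein of the leucocyte surface, showed the largest difference, at 250.3 ± 24.4 FPKM with TABS and 177.3 ± 8.90 FPKM with HA/Mg (± SD over 4 libraries each). Cd68, Csf1r and Cebpb were 16.6% to 19.8% higher with TABS. Spi1, the gene of the lineage's leading transcription factor, was 6.59% higher and did not pass (adjusted p = 0.144). Trem2 was the only one of the 9 whose log2 difference lay below 0.

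Of all 10161 genes tested 18.1% passed, 5.07% higher with TABS and 13.1% lower. The log2 difference was above 0 in 8 of the 9 genes, against 42.3% of all genes, and its median was 0.24 over the 9, against -0.04 over all. For 5 of the 9 the groups did not overlap (Cd52, Cd68, Csf1r, Adgre1 and Spi1), against 23.1% of all genes tested, and 8.05% of all genes were higher in every TABS library as these 5 were. Without HA/Mg replicate 5 or without HA/Mg replicate 7 only Cd52 and Csf1r passed (2 of 9), where 4.11% and 4.71% of all genes did. Without HA/Mg replicate 6 it was 5 of 9, where 32.7% of all genes passed. Without TABS replicate 7 or TABS replicate 8 it was 4 of 9, where 9.23% and 12.2% of all genes passed. Without TABS replicate 8, Adgre1 passed in place of Cebpb. The count over the 9 thus moved with that over the whole table in some of these fits and not in others. Scaling moved the balance of calls over all genes: 515 were higher and 1327 lower in the values as deposited, 862 and 1033 with median-of-ratios scaling, 806 and 1192 with quantile normalization, 251 and 1550 after rescaling to equal sums, and 263 and 384 after the trends of each library with transcript length and GC content had been removed. Of the 9 genes 5 passed with median-of-ratios scaling, 3 with quantile normalization, 3 after rescaling to equal sums and 4 after removal of the trends, where 6.37% of all genes did. Those last 4 again held Adgre1 in place of Cebpb.

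**Figure D1:**
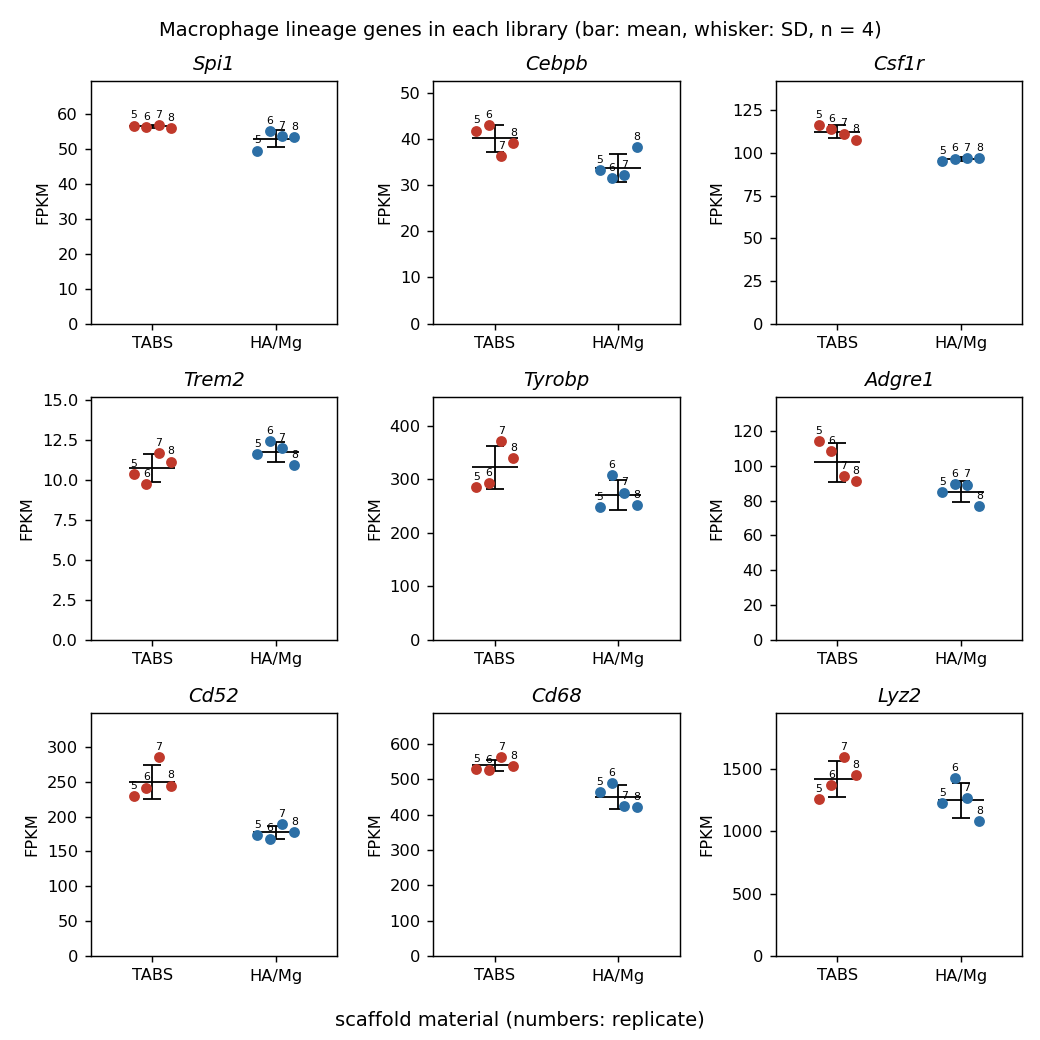
FPKM (vertical axes, from 0) of each of the 9 genes in the 4 TABS and the 4 HA/Mg libraries; points are libraries with their replicate number, bars are means and whiskers are 1 SD. Cd52 lies at 229.7 to 285.6 FPKM with TABS, above the 168.5 to 189.4 FPKM of HA/Mg, while Trem2 overlaps between the groups.

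Within each group the order of levels was the same, with Lyz2 highest, then Cd68, Tyrobp, Cd52, Csf1r, Adgre1, Spi1 and Cebpb, and Trem2 lowest. With TABS the ranges of Tyrobp and Cd52 met at 285.6 FPKM and those of Csf1r and Adgre1 overlapped, although in each of the 4 libraries the higher gene of either pair stayed above the lower. With HA/Mg no neighbouring ranges overlapped. FPKM divides by transcript length, and the length used for each gene was not stated in the sources used. For Trem2 the longest annotated transcript, a retained intron form, has 4784 bases and the longest protein-coding one 1088, while the forms of Csf1r run from 416 to 4701 bases and those of Adgre1 from 342 to 3238. Among all tested genes Lyz2 ranked 25, Cd68 99, Tyrobp 175, Cd52 245, Csf1r 493, Adgre1 560, Spi1 968, Cebpb 1458 and Trem2 3953 by mean FPKM.

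The transcription factors were examined first. Spi1 (ENSMUSG00000002111, chromosome 2, 91082390 to 91115756, plus strand) stood at 56.8, 56.2, 57.0 and 55.9 FPKM in TABS replicates 5 to 8, against 49.6, 55.2, 53.7 and 53.5 FPKM in HA/Mg replicates 5 to 8. Every TABS library was above every HA/Mg library, and the spread was far smaller with TABS (SD 0.473 FPKM, or 0.837% of the mean) than with HA/Mg (2.40 FPKM, or 4.54%). The closest pair were TABS replicate 8 and HA/Mg replicate 6. The log2 difference was 0.09 ± 0.04 (standard error of the model) with a 95% interval of -0.002 to 0.185, which contains 0. Spi1 transcripts are rich in G and C (58.9%, higher than 94.3% of tested genes), and with the length and GC trends removed the difference was -0.01, with an adjusted p = 0.916. It was 0.04 with equal sums, 0.15 with median-of-ratios scaling and 0.06 without HA/Mg replicate 5.

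Cebpb, the gene of C/EBPβ, a basic leucine zipper factor of myeloid cells and of inflammation, spans chromosome 2 from 167688915 to 167690418 on the plus strand (ENSMUSG00000056501). It stood at 41.8, 43.1, 36.4 and 39.2 FPKM with TABS and at 33.2, 31.5, 32.2 and 38.3 FPKM with HA/Mg. HA/Mg replicate 8 lay above TABS replicate 7, so the groups overlapped. The rise was 0.24 ± 0.07 on the log2 scale (adjusted p = 0.0479). This call ended under several settings, among them the 6 fits that lacked TABS replicate 5, TABS replicate 6, TABS replicate 8, HA/Mg replicate 5, HA/Mg replicate 6 or HA/Mg replicate 7 (adjusted p between 0.0671 and 0.126) and removing the length and GC trends (0.15, adjusted p = 0.188). Cebpb had the highest GC content of the 9, at 67.2%, above 99.8% of tested genes.

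The single exon of Cebpb shares up to 312 bases with an exon of Tmem189 on the opposite strand. Whether counting used strand was not stated in the sources used, so reads over that stretch cannot be told apart. Tmem189 itself stood at 34.7 ± 1.43 FPKM with TABS and 30.8 ± 1.33 FPKM with HA/Mg (log2 difference 0.17, limma adjusted p = 0.0408).

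Csf1r (ENSMUSG00000024621, chromosome 18), which encodes the receptor tyrosine kinase for CSF1 and interleukin-34, stood at 116.6, 114.2, 111.4 and 107.9 FPKM in TABS replicates 5 to 8. In HA/Mg replicates 5 to 8 it stood at 95.1, 96.8, 97.3 and 97.0 FPKM. All 4 TABS libraries were higher, and the HA/Mg libraries varied by only 1.02% of their mean. The rise was 0.22 ± 0.04 on the log2 scale (95% interval 0.13 to 0.30, adjusted p = 0.0112). It passed without any 1 of the 8 libraries (adjusted p of 0.00673 to 0.0444) and with the length and GC trends removed (0.21, adjusted p = 0.0303). The largest overlap of a single exon of Csf1r with an exon of Hmgxb3, on the opposite strand, is 873 bases, but Hmgxb3 reached at most 8.63 FPKM.

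Trem2 encodes a receptor for lipids and cell debris that sends its signal through TYROBP, a small membrane adaptor also called DAP12. Trem2 (ENSMUSG00000023992, chromosome 17, 48346401 to 48354147, plus strand) stood at 10.4, 9.73, 11.7 and 11.2 FPKM with TABS and at 11.7, 12.5, 12.0 and 11.0 FPKM with HA/Mg. The groups overlapped, and the log2 difference of -0.12 ± 0.07 did not pass (95% interval -0.27 to 0.02, adjusted p = 0.205). It was -0.07 with median-of-ratios scaling or quantile normalization, and -0.08 with the length and GC trends removed or TABS replicate 6 left out. Tyrobp (ENSMUSG00000030579, chromosome 7, 30413760 to 30417585, plus strand) stood at 285.6, 292.7, 371.4 and 338.9 FPKM with TABS and at 247.8, 307.3, 274.7 and 252.0 FPKM with HA/Mg. HA/Mg replicate 6 was above TABS replicates 5 and 6. The log2 difference of 0.25 ± 0.10 did not pass (adjusted p = 0.0994), although it did when HA/Mg replicate 6 was left out (adjusted p = 0.0358) or when libraries were weighted by their spread (adjusted p = 0.0334). With the length and GC trends removed it was 0.14 (adjusted p = 0.244).

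The pair was also compared within each library. There were 27.5, 30.1, 31.7 and 30.4 FPKM of Tyrobp for each FPKM of Trem2 in TABS replicates 5 to 8, and 21.3, 24.7, 22.9 and 23.0 in HA/Mg replicates 5 to 8. These ratios did not overlap between the groups, unlike either gene alone. The log2 ratio of Trem2 to Tyrobp was -4.90 with TABS and -4.52 with HA/Mg, a difference of -0.38. A two-sided exact permutation test gave p = 0.0286, which no result over 70 assignments can go below, and this was the single ratio tested. The ratio was itself chosen with earlier results of these data known, and the share of other gene pairs that separate the groups is not given. From log2(FPKM + 1) values the difference was -0.22 with the length and GC trends removed and -0.24 with quantile normalization, against -0.37 as deposited, and the groups still did not overlap (exact p = 0.0286 in each; both normalized settings were added after the data had been seen). The ratio shows an unequal difference of the pair and not which gene differed.

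**Figure D2:**
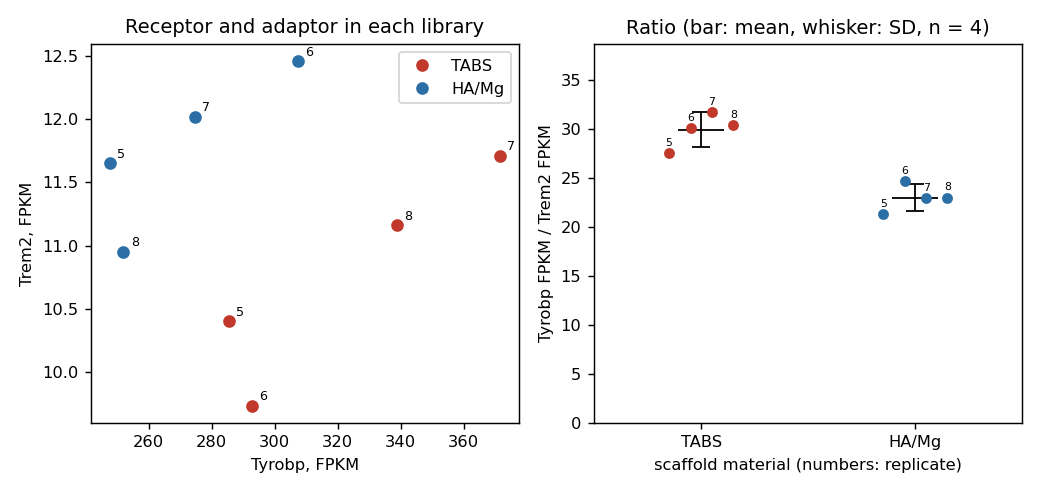
Left, FPKM of Trem2 (vertical axis) against FPKM of Tyrobp (horizontal axis), 1 point for each library with its replicate number; neither axis starts at 0. Right, Tyrobp FPKM divided by Trem2 FPKM with mean and SD (n = 4 each), at 27.5 to 31.7 with TABS and 21.3 to 24.7 with HA/Mg.

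Adgre1 encodes F4/80, an adhesion G protein-coupled receptor used to mark mouse macrophages (ENSMUSG00000004730, chromosome 17, 57358691 to 57483527, plus strand). It stood at 114.4, 108.7, 94.0 and 91.1 FPKM in TABS replicates 5 to 8 and at 85.1, 89.6, 89.2 and 77.1 FPKM in HA/Mg replicates 5 to 8. The groups did not overlap, but TABS replicate 8 was only just above HA/Mg replicate 6, and TABS replicates 5 and 6 stood well above TABS replicates 7 and 8. The log2 difference was 0.25 ± 0.08 (95% interval 0.07 to 0.44) and missed the threshold (adjusted p = 0.0579). It passed with the length and GC trends removed (0.35, adjusted p = 0.0457), with median-of-ratios scaling (adjusted p = 0.0379), with array weights (0.0281) and without HA/Mg replicate 6 (0.0442) or TABS replicate 8 (0.0434).

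Cd52 (ENSMUSG00000000682, chromosome 4, 134082448 to 134095082, minus strand) stood at 229.7, 241.6, 285.6 and 244.4 FPKM with TABS and at 173.7, 168.5, 189.4 and 177.7 FPKM with HA/Mg. The lowest TABS library lay well above the highest HA/Mg library, and TABS replicate 7 stood highest. Cd52 was 41.2% higher with TABS, a log2 difference of 0.49 ± 0.07 (95% interval 0.34 to 0.65, adjusted p = 0.00851). The call held without any 1 of the 8 libraries (adjusted p of 0.00482 to 0.0354) and with the length and GC trends removed (0.45, adjusted p = 0.0162). An exon of Crybg2 on the opposite strand shares 145 bases with it, and that gene reached at most 5.15 FPKM.

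Cd68 encodes macrosialin, a heavily glycosylated protein of late endosomes and lysosomes (ENSMUSG00000018774, chromosome 11, 69664213 to 69666153, minus strand). It stood at 529.5, 526.0, 562.8 and 537.0 FPKM with TABS and at 464.4, 489.7, 424.9 and 420.7 FPKM with HA/Mg. The groups did not overlap, and HA/Mg replicate 6 came closest to TABS. The rise was 0.26 ± 0.06 on the log2 scale (95% interval 0.13 to 0.39, adjusted p = 0.0197). The call ended when HA/Mg replicate 5, 7 or 8 was left out (adjusted p between 0.0530 and 0.0659) and without any low-value filter (adjusted p = 0.0556). It held, at 0.20 with adjusted p = 0.0495, with the length and GC trends removed, and at 0.15 with adjusted p = 0.0401 under quantile normalization.

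Lyz2 encodes lysozyme M, the enzyme that macrophages secrete to break bacterial cell walls (ENSMUSG00000069516, chromosome 10, 117277331 to 117282321, minus strand). It stood at 1256, 1369, 1595 and 1450 FPKM with TABS and at 1225, 1423, 1267 and 1081 FPKM with HA/Mg. HA/Mg replicate 6 was above TABS replicates 5 and 6, and the groups overlapped. The log2 difference of 0.18 ± 0.10 did not pass (95% interval -0.03 to 0.40, adjusted p = 0.200). It was 0.055 under quantile normalization and 0.12 without HA/Mg replicate 8 (adjusted p = 0.609 and 0.417). Lyz1 (ENSMUSG00000069515), the neighbour whose promoter is set beside that of Lyz2 above, stood at 141.1 ± 22.2 FPKM with TABS and 126.9 ± 11.7 FPKM with HA/Mg, and did not pass either (limma adjusted p = 0.374).

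The lysozyme transcripts in GENCODE are 96.0% identical over 1262 aligned bases. The longest run of identical bases is 118, and none (0) of the 1167 windows of 150 bases in Lyz2, the length of a read, occurs exactly in Lyz1. How reads were shared between the pair was not stated in the sources used. Lyz2 stood at 10.1 ± 0.651 times the FPKM of Lyz1 with TABS and 9.83 ± 0.288 times with HA/Mg (SD, n = 4 each).

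**Figure D3:**
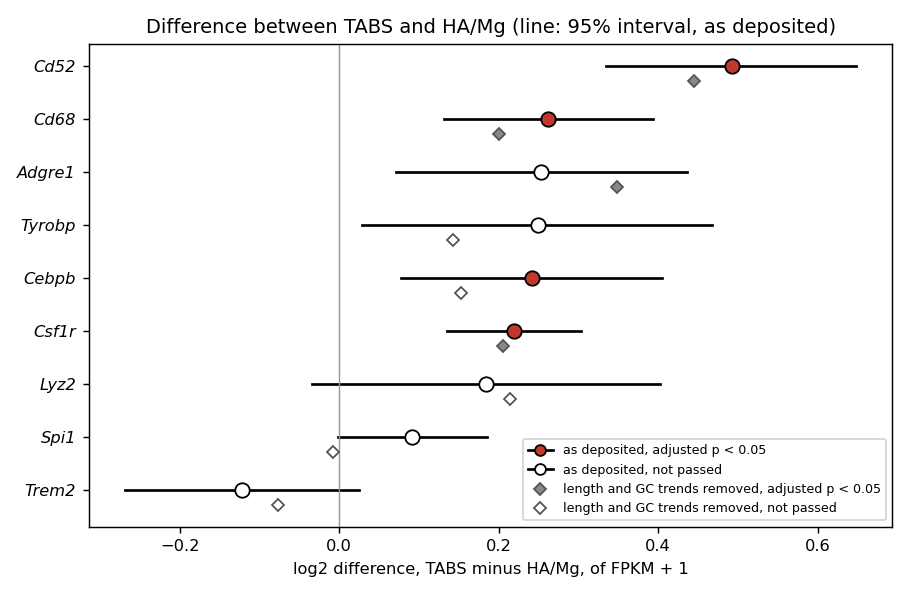
Log2 difference in FPKM + 1, TABS minus HA/Mg (horizontal axis), of the 9 genes, largest at the top; circles are the values as deposited with 95% intervals as lines, diamonds the values after the length and GC trends were removed, and filled symbols passed at an adjusted p under 0.05. Cd52, Cd68 and Csf1r are filled in both, Cebpb only as deposited (0.24, against 0.15 after removal) and Adgre1 only after removal (0.35, against 0.25 as deposited).

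Libraries of 1 group differed from each other in a way that several of the genes shared. In TABS replicate 7 the genes Lyz2, Cd68, Spi1, Trem2, Tyrobp and Cd52 (6 of 9) had their highest TABS value, while Cebpb had its lowest. In HA/Mg replicate 6 the genes Lyz2, Cd68, Adgre1, Spi1, Trem2 and Tyrobp (6 of 9) had their highest HA/Mg value, while Cebpb and Cd52 had their lowest. These libraries were also the lowest of their groups on the first principal component over all tested genes (-16.5 and -2.62). The share of all tested genes that were highest in either library was not counted, so the pattern is not shown to be particular to the 9. After each group's mean was subtracted, Lyz2, Trem2 and Tyrobp lay on the same side of their means in 8 of 8 libraries. Cebpb lay on the same side as each of these in 1 of 8. Csf1r and Adgre1 were on the same side in 7 of 8. Deviations within a group sum to 0, so the 8 values are not independent, and these counts are a description with no test.

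**Figure D4:**
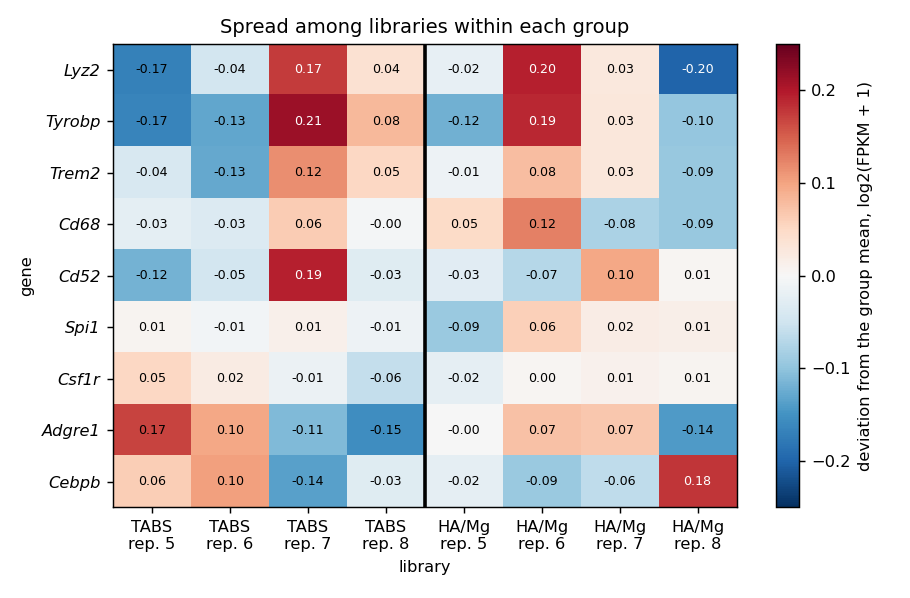
Deviation of each of the 9 genes (rows) from its group mean on the log2(FPKM + 1) scale in each library (columns, TABS left of the line, HA/Mg right of it). Lyz2, Tyrobp and Trem2 share their sign in all 8 columns, and Cebpb shares it with them in 1 of 8, standing at -0.14 in TABS replicate 7 and 0.18 in HA/Mg replicate 8.

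Among the 6384 genes averaging 5 FPKM or more, those most like a given gene over the 8 libraries were found by Pearson's r on log2(FPKM + 1), as a description that includes the difference between the groups. Most like Cd52 were Gstp3 (0.984), Irf8 (0.977) and Anxa6 (0.969). Most like Csf1r were Slc52a2 (0.992), Cd37 (0.990) and Gm43351 (0.984). Most like Cd68 were Mvb12a (0.997), Npc2 (0.989) and Acss2 (0.988), and most like Adgre1 were Cd83 (0.982), Grap (0.976) and Abcc1 (0.974). With each group's mean subtracted, Mvb12a was still first for Cd68 (0.996), Dynlrb1 for Tyrobp (0.990), Gm14165 for Spi1 (0.985) and Cybc1 for Cebpb (0.978). Other genes came first for Adgre1 (Litaf, 0.984), Lyz2 (Pdia4, 0.994), Trem2 (1810037I17Rik, 0.980), Csf1r (Lilrb4a, 0.974) and Cd52 (Atp5mpl, 0.946). Each r is the highest found among so many genes over so few libraries, and no test was made of it.

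Other genes of the macrophage programme were taken from 4 lists. Their counts stand beside the share over all 10161 genes tested, of which 18.1% passed, 5.07% higher with TABS and 13.1% lower. No list was tested as a set. Of 14 further lineage transcription factors 10 could be tested, and 1 rose, 0 fell and 9 did not pass (median log2 difference 0.03). The one that rose was Irf8, a factor that works with PU.1 in monocytes, at 31.0 ± 0.982 FPKM with TABS and 27.4 ± 0.486 FPKM with HA/Mg (log2 difference 0.17 ± 0.04, adjusted p = 0.0215), a call that held in 3 of the 8 fits with 1 library left out. Cebpa, the gene of the related C/EBPα, stood at 4.03 FPKM with TABS and 3.84 FPKM with HA/Mg and did not pass (adjusted p = 0.770), and Maf was listed at 0 in every library.

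Of 12 ligands and signalling genes of the CSF1 receptor 9 could be tested, and 1 rose, 1 fell and 7 did not pass (median log2 difference 0.01). Dok2, a docking protein that dampens receptor kinases, stood at 27.3 ± 1.73 FPKM with TABS and 22.4 ± 1.60 FPKM with HA/Mg (adjusted p = 0.0228). Pik3r1, a regulatory subunit of phosphoinositide 3-kinase, fell to 1.60 ± 0.178 FPKM with TABS, against 2.38 ± 0.382 FPKM with HA/Mg (adjusted p = 0.0309). With the length and GC trends removed both calls ended (adjusted p = 0.0929 and 0.0743), and Pik3r1 passed in 1 and Dok2 in 4 of the 8 fits with 1 library left out. The ligands themselves were below the filter, Csf1 at 0.929 FPKM with TABS and 0.823 FPKM with HA/Mg and Il34 at 0.00591 FPKM with TABS and 0.0112 FPKM with HA/Mg.

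Of 12 genes listed as receptors coupled to TYROBP or as part of such signalling 8 could be tested, and 0 rose, 2 fell and 6 did not pass (median log2 difference 0.12). Which adaptor each receptor uses in these cells was not examined. Cd300ld, a receptor of the CD300 family, fell to 26.4 ± 2.03 FPKM with TABS, against 33.1 ± 1.48 FPKM with HA/Mg (adjusted p = 0.0136). Cd300ld passed in 8 of 8 fits with 1 library left out and with the length and GC trends removed (adjusted p = 0.0344). Whether its fall bears on signalling through TYROBP was not tested. Clec5a, a lectin-like receptor, fell to 7.995 ± 0.610 FPKM with TABS, against 9.83 ± 0.9997 FPKM with HA/Mg (adjusted p = 0.0429, or 0.499 with the trends removed). Fcer1g, the adaptor of Fc receptors that resembles TYROBP in its role, stood at 599.4 ± 80.5 FPKM with TABS and 477.5 ± 70.1 FPKM with HA/Mg and did not pass (adjusted p = 0.0747). Apbb1ip did not pass as deposited (limma adjusted p = 0.828) but passed with the trends removed (log2 difference 0.22, limma adjusted p = 0.0303).

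Of 32 further surface and lysosomal markers 23 could be tested, and 6 rose (Cd14, Fcgr3, Siglec1, Coro1a, Itgb2 and Laptm5), 0 fell and 17 did not pass (median log2 difference 0.05). Cd14, a co-receptor for bacterial lipopolysaccharide, had the largest difference, 0.44 ± 0.09 (adjusted p = 0.0168, or 0.0579 in the highest of the fits with 1 library left out). Fcgr3, an Fc receptor for immunoglobulin G, stood at 9.53 ± 0.215 FPKM with TABS and 7.66 ± 0.599 FPKM with HA/Mg (adjusted p = 0.0167) and passed in 8 of 8 such fits. Siglec1, a sialic acid receptor, stood at 9.50 ± 0.946 FPKM with TABS and 7.60 ± 0.381 FPKM with HA/Mg (adjusted p = 0.0285) and passed in 3 of 8 such fits. Coro1a, an actin-binding protein of leucocytes, stood at 201.2 ± 1.92 FPKM with TABS and 172.2 ± 11.4 FPKM with HA/Mg (adjusted p = 0.0196). With the length and GC trends removed, Fcgr3 and Cd14 passed (adjusted p = 0.0276 and 0.0472), and Siglec1, Coro1a, Itgb2 and Laptm5 did not (adjusted p = 0.117, 0.135, 0.0824 and 0.145). Msr1, Fcgr2b and Cd53, which had not passed as deposited, were higher with TABS and passed in that setting (limma adjusted p = 0.0319, 0.0344 and 0.0473). Genes that did not pass included the lysosomal Lamp1 (452.8 ± 11.2 FPKM with TABS and 448.3 ± 19.8 FPKM with HA/Mg, adjusted p = 0.841) and Ctss, the protease cathepsin S (227.6 ± 4.42 FPKM with TABS and 246.6 ± 12.3 FPKM with HA/Mg, adjusted p = 0.104). Several receptors of tissue macrophages were at or near 0 in these cells: Mrc1 averaged 0.00930 FPKM with TABS and 0.00174 FPKM with HA/Mg, and Mertk was listed at 0 with TABS and averaged 0.00251 FPKM with HA/Mg.

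**Figure D5:**
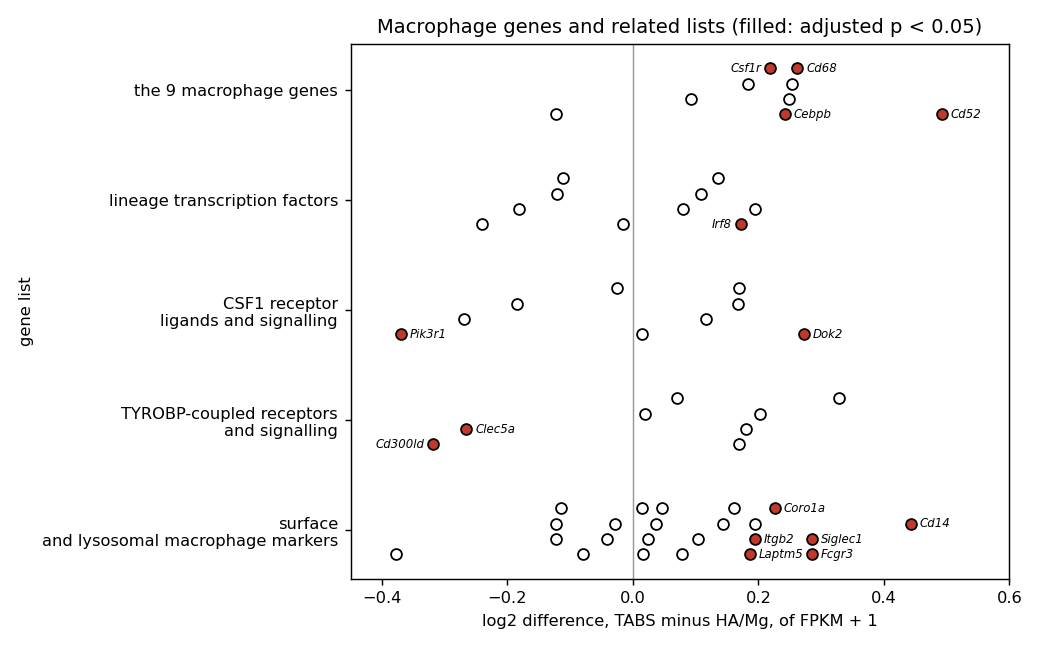
Log2 difference in FPKM + 1, TABS minus HA/Mg (horizontal axis), of the 9 genes and of the tested genes of 4 further lists (rows, spread vertically only for legibility); filled points passed at an adjusted p under 0.05 and are named. Cd14 (0.44) stands highest among the further genes, while Pik3r1 (-0.37) and Cd300ld (-0.32) lie lowest among those that passed.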

How the data were processed

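The authors deposited 1 table of FPKM values for 8 RNA-seq libraries (TABS 4, HA/Mg 4), with no counts. TRIzol was used for RNA extraction and reads were 150-base pairs, per the labels' protocols. The build was GRCm38 and the tools named are fastp, STAR and DESeq2, per the submitters' processing notes. Which tool made the FPKM values, with which annotation and strand setting, was not stated in the sources used. FPKM depends on each library's total and does not remove differences in the recovery of long or GC-rich transcripts.

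Of 55335 identifiers 55154 matched GENCODE M21 (GRCm38), which gave symbols, positions, lengths and GC content. The 10161 genes that reached 1 FPKM in 4 or more libraries were compared in limma 3.58.1 (R 4.3.3) on log2(FPKM + 1), by moderated linear models with a mean-variance trend, two-sided, with Benjamini-Hochberg adjustment over all of them. Log2 differences are TABS minus HA/Mg on that scale, which understates the change of low genes. The steps were tested on simulated data, with 50 genes changed at each size. Of changes of 0.3, 0.5, 1 and 2 on the log2 scale 38%, 72%, 94% and 100% were recovered, with 3 false calls among 155. Noise was drawn separately for each gene, so shifts that genes of a library share were not simulated. A gene that did not pass is therefore not shown to be unchanged. The 9 genes, the lists and the tests were chosen with earlier results of these data known. Genes named from the 4 lists were up to 4 with the largest difference among those past the threshold. Cebpa, Maf, Csf1, Il34, Fcer1g, Apbb1ip, Itgb2, Laptm5, Msr1, Fcgr2b, Cd53, Lamp1, Ctss, Mrc1 and Mertk were named with their values known. Settings tried besides were other pseudocounts, filters, scalings, weights and moderation, removal of length and GC trends (natural splines, 4 degrees of freedom), a replicate block and each library left out.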

Additional observations from a re-analysis of the deposited data

How the results depend on the processing

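Over 20 alternatives the direction of each of the 9 genes was kept except that of Spi1, which stood at -0.008 with the length and GC trends removed. Of 180 results for single genes 154 stayed on the same side of the threshold, that of Spi1 among them, 19 lost a call and 7 gained one; in all, 12 of the 19 were of Cebpb. The number of the 9 genes that passed was 2 with no filter on low values, where 22906 genes were tested, and 2 to 5 with 1 library left out. Over all genes the number was 808 with no filter, 647 with the length and GC trends removed, 3532 with array weights (which called 6 of the 9), and 414 to 3309 with 1 library left out, lowest without HA/Mg replicate 5 and highest without HA/Mg replicate 6. The cause was not tested.

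When replicate number entered limma as a block, it called 0 of the 9 genes (adjusted p of 0.0589 to 0.317, 6 of them at an unadjusted p under 0.05) and 0 of all genes (2987 at an unadjusted p under 0.05). No other tool was run on this block. Same-numbered libraries did not all deviate together (correlations of 0.01, -0.28, -0.16 and 0.13 for numbers 5 to 8), of the TABS libraries number 8 alone correlated best with its own number, and the labels do not say that a number marks a shared culture or batch, so the numbers were not taken to pair the libraries. The Trem2 to Tyrobp difference was -0.422 to -0.346 with 1 library left out (exact p = 0.0571 each, the smallest that 4 against 3 libraries allow) and -0.382 with sign flips within replicate numbers as a block (exact p = 0.125, the smallest for 4 pairs). Depth is known only roughly, so no counting error is given.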
